A study of Ictidomys tridecemlineatus with 5 samples.

Results

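The Wnt ligands, receptors and inhibitors of the ground squirrel eye were taken from the deposited tables by the name of each transcript's best Swiss-Prot match. They comprise proteins named Wnt, Frizzled, secreted frizzled-related protein (SFRP), Dickkopf (DKK), Wnt inhibitory factor, R-spondin, Axin, Norrin, and the low-density lipoprotein receptor-related proteins LRP5 and LRP6, with DKK3 left out. This gave 40 proteins among 15938 names with a Swiss-Prot match. All 40 were in the eye table, on 61 transcripts, and 28 were in the retina table, on 53 transcripts. The animals were wild-type thirteen-lined ground squirrels, Ictidomys tridecemlineatus, and 5 RNA sequencing libraries were made, 2 of eye and 3 of retina. RNA of 4 animals was pooled for a library preparation, per the labels. The libraries of a tissue share 1 table with 1 value per assembled transcript, so the differences have no check over replicates and carry no p-value. A level is the RPKM (reads per kilobase of transcript, scaled to the depth of the library) of the highest transcript of a protein, so levels are scaled per length. Reads recovered from the levels sum to 19.2 (eye) and 10.5 (retina) times the totals used for scaling, so reads may count on several transcripts. This multiple differs between the tissues, and its part in the differences was not tested. A difference is log2(eye RPKM + 1) minus log2(retina RPKM + 1), which understates the difference of low genes, and a protein was called higher in a tissue at a 2-fold difference on this scale.

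Wnt proteins are secreted, lipid-modified signals that bind Frizzled receptors. In the beta-catenin branch LRP5 or LRP6 joins the receptor, a cytoplasmic complex built on Axin stops degrading beta-catenin, and beta-catenin enters the nucleus to act with TCF/LEF factors. Norrin is an unrelated protein that activates the same branch through FZD4, LRP5 and the tetraspanin TSPAN12, a route known for the growth of retinal vessels. SFRPs and WIF1 bind Wnts outside the cell, DKK1 and DKK2 bind LRP5 and LRP6, and R-spondins keep Frizzled receptors at the cell surface by acting on LGR receptors and the ligases ZNRF3 and RNF43.

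The totals behind the RPKM scaling were 264219334 reads (eye) and 355988270 reads (retina). Among the 28 members in both tables the 95% counting interval around each difference reached 0.047 to either side in the median and at most 0.14, and such intervals cover counting error only. The tissue labels were checked against marker genes. All 10 retinal neuron markers were lower in eye, with a summed level of 3641 RPKM in eye against 7172 in retina. The eye values of RCVRN, ARR3 and SNAP25 rested on transcripts of 174, 139 and 191 bases. With transcripts of at least 200 bases they were 109, 540 and 373 RPKM in eye, so the eye sum depends on such fragments. The summed level of 5 Mueller glia markers was 1502 and 1522 RPKM, with 3 higher in eye and 2, SLC1A3 and DKK3, higher in retina. GLUL, at 856 and 801 RPKM, held most of both sums. All 7 compared markers of connective tissue were higher in eye, with a summed level over all 8 of 664 and 18.1 RPKM. The sums were 576 and 47.5 RPKM for pigmented cells (6 of 7 higher in eye), 5456 and 4.66 for lens (4 of 4), 5218 and under 2 for corneal and conjunctival epithelium (3 of 3), and 92.7 and 36.2 for vascular endothelium (5 of 6, the exception being KDR). The markers KERA, MIP, KRT13 and MYH2 of connective tissue, lens, ocular surface and skeletal muscle were not in the retina table and enter the eye sums only. The eye values of KRT13 and KRT15 rested on transcripts of 123 and 103 bases. With transcripts of at least 200 bases they were 114 and 236 RPKM in eye. For skeletal muscle 2 of 3 compared were higher in eye, with a summed level over all 4 of 856 and 586 RPKM, the exception being CKM. The retina value of CKM rested on a transcript of 115 bases, and with transcripts of at least 200 bases CKM was at 210 and 103 RPKM and all 3 were called higher in eye. These marker levels differ between the tissues together with the Wnt members described here, and their part in those differences was not tested. In such bulk RNA, fewer cells of a type and less RNA per cell cannot be told apart, and neither can tissue and separate assembly.

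Wnt ligands, Frizzled receptors and R-spondins were found more widely, and mostly at higher levels, in eye than in retina. Of the secreted inhibitors, FRZB and WIF1 had their higher level in retina and SFRP5 had it in eye. The differences of SFRP1 and SFRP2, -0.09 and -0.12, were small and changed sign with the measure. Of the 28 shared members, 18 had the higher level in eye and 10 in retina, and of all names compared 49.7% had the higher level in eye. SFRP5, WNT4, FZD1, RSPO2 and FZD2 were called higher in eye, 5 of 28 or 17.9%, against 11.8% of all 13383 names compared. FRZB alone was called higher in retina, 3.57% of the 28, against 3.60% of all names. Both shares lie near the background, so these counts are no result about the members as a set. By the plain ratio of RPKM, 13 of the 28 reached 2-fold towards eye and 1 towards retina, against 15.3% and 4.83% of all names. The median difference of the 28 was 0.54, against -0.0035 over all names. Of the 28, 8 were under 1 RPKM in retina and passed the 1 RPKM filter of the comparison through their eye value, which fixed their direction. The split of 18 and 10, the plain ratio counts and the median include these 8, so they are no result about the members as a set. Of the 14 alternative settings, the sums per protein rescaled to an equal total gave a members' median of -0.22 with a median of all names of -0.63. The filter at 10 RPKM, which left 7 members, gave -0.34, with 1 member higher in eye and 6 in retina.

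**Figure D1:**
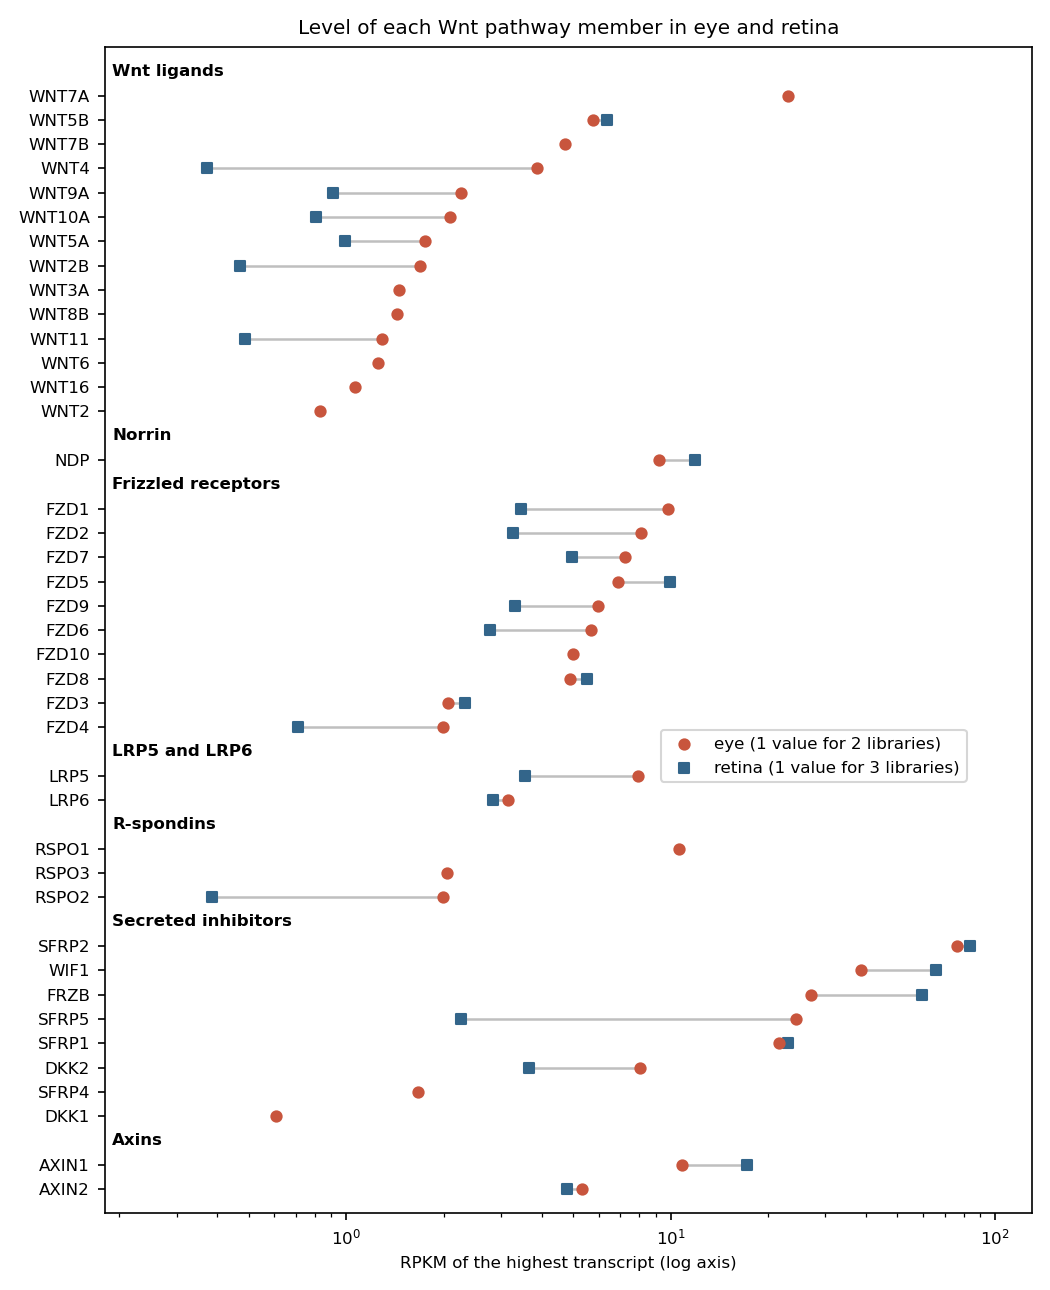
Level of each of the 40 members (RPKM of the highest transcript, log axis) in eye (circles) and retina (squares), grouped by role, with a grey line joining the values of a member. The 12 members with a circle alone were in the eye table only, and the secreted inhibitors SFRP2, WIF1 and FRZB lie furthest right in both tissues.

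No member was found in the retina table only, and 12 were in the eye table only. These were WNT2, WNT3A, WNT6, WNT7A, WNT7B, WNT8B, WNT16, FZD10, RSPO1, RSPO3, SFRP4 and DKK1. Of the 38 members at 1 RPKM or more in eye, 10 were absent from the retina table, 26.3%, against 5.42% of all names at that level. The opposite absence, from the eye table of names at 1 RPKM or more in retina, held for 2.26% of all names. Low names were more often absent. Of the 19 members from 1 to under 5 RPKM in eye 8 were absent from retina, 42.1% against 11.2% of all names at those levels, and of the 19 members at 5 RPKM or more 2 were absent, 10.5% against 2.87%. The tables list assembled transcripts only, so a missing name gives no upper limit on the level. The lowest value listed in the retina table was 0.0273 RPKM.

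Wnt ligands made up 7 of the 12 members in the eye table only. Of 19 ligand genes known to RefSeq, 14 had a transcript in eye and 7 in retina. WNT1, WNT3, WNT8A, WNT9B and WNT10B had no match in either table. The highest ligand was WNT7A, known from the corneal epithelium of other mammals, at 22.9 RPKM in eye (95% Poisson interval 22.6 to 23.3, 16627 reads on a transcript of 2743 bases). It was not in the retina table. WNT7A held 43.8% of the summed ligand level of eye and stood above 78.5% of all eye names. WNT7B, its closest relative, was at 4.74 RPKM in eye (4.59 to 4.89) and likewise absent from the retina table. Both eye transcripts matched 349 residues of their proteins, so these names do not rest on a short fragment.

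The remaining ligands of the eye table alone were low. WNT3A, a ligand of the beta-catenin branch, was at 1.46 RPKM on 2409 bases. WNT8B was at 1.43 RPKM, WNT6 at 1.26, WNT16 at 1.07 and WNT2 at 0.830, the last with 120 reads. In the RefSeq gene order WNT3A lies next to WNT9A and WNT6 next to WNT10A. In each of these pairs the first was in the eye table only, while WNT9A and WNT10A were also in the retina table, at 0.913 and 0.808 RPKM.

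Among the 7 ligands that both tables hold, 6 had their higher level in eye, against 49.7% of all names, and the median difference was 0.77. These 6 were under 1 RPKM in retina and passed the 1 RPKM filter of the comparison through their eye value. Their direction was thus fixed by the filter, so this count is no result about the ligands. WNT4 was at 3.87 RPKM in eye against 0.372 in retina, and the difference of 1.83 was called under all alternatives but pseudocount 5 (0.72). By the plain ratio it was 10.4-fold higher in eye (7.44 to 14.6), from 1337 and 35 reads, and the retina transcript had 264 bases. WNT2B, a ligand of the ciliary margin in the developing eye, was at 1.69 and 0.471 RPKM, a ratio of 3.58 (3.06 to 4.19). WNT9A was at 2.26 RPKM in eye against 0.913 in retina, WNT10A at 2.09 and 0.808, and WNT11 at 1.29 and 0.486. Their plain ratios of 2.47 to 2.66 were past 2-fold, but their differences on the log2 scale with 1 added were 0.63 to 0.77 and were not called.

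WNT5B and WNT5A, ligands known mainly for signalling without beta-catenin, were the shared ligands under 2-fold by the plain ratio. WNT5B was at 5.76 RPKM in eye (5.54 to 5.98) against 6.36 in retina (6.19 to 6.54), the only ligand higher in retina by the main measure. It was also the only ligand at 1 RPKM or more in retina, where it held 61.1% of the summed ligand level. WNT5A was at 1.75 and 0.992 RPKM, higher in eye by the main measure with a plain ratio of 1.76 (1.52 to 2.03). Its difference of 0.46 was -0.003 with transcripts summed and -0.44 with those sums rescaled to an equal total. The retina transcripts of the 7 ligands were short, with a median of 705 bases and 172 aligned residues, against 1942 bases and 349 residues for the 14 ligands of eye. Ratios of low ligands therefore often compare a fragment in retina with a longer transcript in eye.

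Frizzled receptors were present throughout, with 10 of 10 in eye and 9 in retina. Among the 9 in both, 6 had their higher level in eye, against 49.7% of all names. Of these, FZD4 was under 1 RPKM in retina and passed the 1 RPKM filter through its eye value, which fixed its direction. The median difference was 0.69, and FZD1 and FZD2 were called. In the groups by which these receptors are classed from their sequence, FZD1, FZD2 and FZD7 were all higher in eye. FZD1 was at 9.80 RPKM in eye (9.63 to 9.99) against 3.45 in retina (3.36 to 3.55), a difference of 1.28, which fell short of the call with pseudocount 5 (0.81) and with sums rescaled to an equal total (0.76). FZD2 was at 8.10 and 3.26 RPKM, a difference of 1.09. It fell short of the call with pseudocount 5 (0.67), equal totals (0.88) and sums in RPKM (0.51), and was -0.053 with sums rescaled. FZD7 was at 7.23 and 4.97 RPKM, a difference of 0.46 that was -0.38 with sums rescaled. These receptors are near relatives, so reads may be shared between them.

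FZD5, known for its role in eye development, and FZD8 form another such group and were both higher in retina. FZD5 was at 6.91 RPKM in eye (6.79 to 7.02) against 9.99 in retina (9.86 to 10.1), a difference of -0.47 that lay from -1.07 to -0.33 over the alternatives. FZD8 was at 4.89 and 5.51 RPKM, a difference of -0.14. FZD6, known from planar cell polarity, was at 5.67 and 2.77 RPKM, while its relative FZD3 was at 2.06 and 2.33. In the group of FZD4, FZD9 and FZD10, FZD9 was at 5.97 and 3.32 RPKM, FZD4 (described with Norrin) was also higher in eye, and FZD10 was in the eye table only, at 4.99.

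The order of the receptors thus differed between the tissues. In eye FZD1 was the highest, followed by FZD2, FZD7 and FZD5, with no overlap of the counting intervals among these 4. FZD9 and FZD6, FZD10 and FZD8, and FZD3 and FZD4 were pairs with overlapping intervals. In retina FZD5 was the highest, followed by FZD8 and FZD7. The next levels, FZD1, FZD9 (3.19 to 3.46) and FZD2 (3.12 to 3.41), had overlapping intervals, and FZD6, FZD3 and FZD4 were the lowest. These intervals cover counting error only, and reads may count on several transcripts, so the order has no check over replicates.

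The Norrin route had its ligand higher in retina and, by the highest transcript, its receptors higher in eye. Norrin, NDP, was at 9.21 RPKM in eye (8.95 to 9.48) against 11.9 in retina (11.7 to 12.2), a difference of -0.34 that was negative under all 14 alternatives. FZD4, its receptor, was at 1.98 RPKM in eye (1.92 to 2.05) against 0.711 in retina (0.612 to 0.821). The plain ratio was 2.79 (2.41 to 3.23), but the retina value rested on 185 reads over 731 bases against 6956 bases in eye. FZD4 was the lowest Frizzled in both tables. LRP5 was at 7.92 RPKM in eye (7.77 to 8.07) against 3.56 in retina (3.47 to 3.65), a difference of 0.97. It had 1 transcript in eye and 3 in retina, from 2.08 to 3.56 RPKM, and with transcripts summed its difference was -0.10. LRP6 was at 3.16 and 2.83 RPKM, a difference of 0.12 that was -0.38 with sums rescaled to an equal total. TSPAN12, which is outside the member list, was at 8.16 and 5.44 RPKM, a difference of 0.51 that was -0.05 with sums rescaled.

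Of the R-spondins 3 were in the eye table and 1 in the retina table. RSPO1 was at 10.6 RPKM in eye (4313 reads) with a second transcript at 8.52, and had no transcript in retina. RSPO3 was at 2.04 RPKM in eye and likewise absent from retina. RSPO2 was at 1.99 RPKM in eye against 0.387 in retina, a plain ratio of 5.14 (3.99 to 6.63) with 62 reads behind the retina value. Its difference of 1.11 fell short of the call with pseudocount 5 (0.38) and with sums rescaled (0.90). RSPO4 had no match in either table. Their receptor LGR4 was at 19.1 RPKM in eye against 21.3 in retina, and its sign changed with sums.

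**Figure D2:**
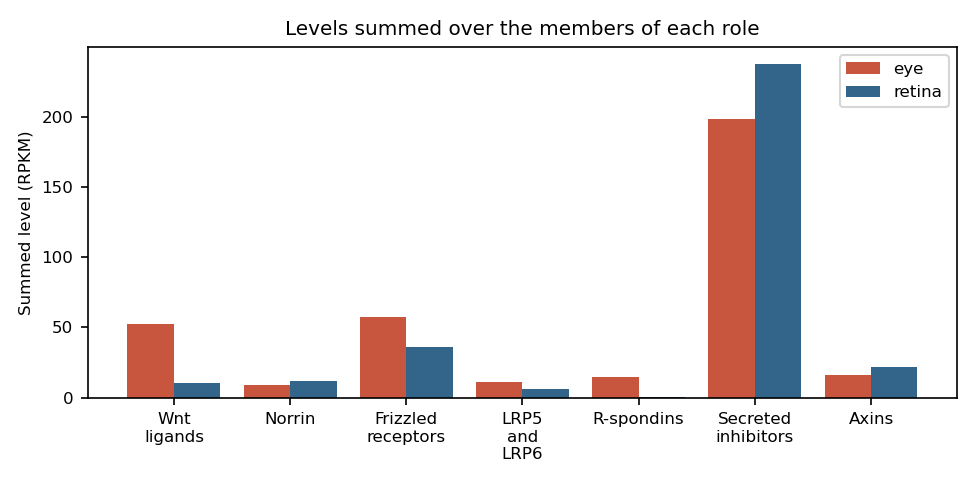
Levels summed over the members of each role (RPKM, highest transcript per protein), for eye and retina, with bars starting at 0. Secreted inhibitors hold the largest sum in both tissues, 198 RPKM in eye against 238 in retina, while the ligand sums are 52.4 and 10.4.

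Secreted inhibitors were the most abundant members in both tissues. They held 55.1% of the summed level of all members in eye and 73.1% in retina. Their sum was 3.78 times that of the ligands in eye and 22.8 times in retina, as RNA levels that say nothing of protein. The ligand sum itself was 5.04 times as high in eye as in retina, and 2.83 times without WNT7A, with ligands absent from the retina table counted as 0. Over the 7 shared ligands alone the sums were 18.7 RPKM in eye and 10.4 in retina. SFRP2 was the highest member of all, at 76.5 RPKM in eye (75.8 to 77.3) against 83.5 in retina (82.8 to 84.1), above 93.6% and 94.7% of all names. Its difference of -0.12 was small and changed sign with sums in RPKM and with length-weighted means, to 0.08 with the latter. SFRP1 was at 21.5 and 23.1 RPKM, a difference of -0.09 that was 0.01 with best-matching transcripts. Its retina value came from a transcript aligned over 162 residues at 65% similarity, against 283 residues at 84% in eye.

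FRZB (SFRP3) and WIF1 were higher in retina. FRZB was at 27.1 RPKM in eye (26.6 to 27.5) against 59.6 in retina (59.1 to 60.1), a difference of -1.11, lower than that of 97.1% of all names. Its 7 eye transcripts lay from 9.01 to 27.1 RPKM and its 3 retina transcripts from 44.3 to 59.6, with no overlap. The 2-fold call was lost with best-matching or longest transcripts, at -0.94, and with sums rescaled, at -0.77. With the 7 and 3 transcripts summed in RPKM it was -0.13. WIF1 was at 38.5 RPKM in eye (38.0 to 39.0) against 65.7 in retina (65.1 to 66.3), a difference of -0.76. Its transcripts lay from 33.3 to 38.5 RPKM in eye and from 53.6 to 65.7 in retina, again with no overlap, and the difference was negative under all 14 alternatives. The lowest eye values of FRZB and WIF1 were on transcripts of 474 and 354 bases. Transcripts of a protein may share reads and are not replicates, so their lack of overlap measures no spread.

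SFRP5 went the other way. It was at 24.3 RPKM in eye (23.8 to 24.7) against 2.26 in retina (2.14 to 2.38), a difference of 2.96 and a plain ratio of 10.8 (10.2 to 11.4). Only 1.59% of all names had a larger difference towards eye. Its 3 eye transcripts lay from 7.56 to 24.3 RPKM and both retina transcripts at 0.931 and 2.26, and it was the only member called under all 14 alternatives, from 2.01 to 3.71. SFRP5 and its near relatives SFRP1 and SFRP2 thus had unlike distributions over the tables. SFRP4 was in the eye table only, at 1.66 RPKM. DKK2, whose loss in mice turns corneal epithelium towards skin, was at 8.03 RPKM in eye against 3.66 in retina, a difference of 0.95 just short of the call and a plain ratio of 2.19. DKK1 was in the eye table only, at 0.606 RPKM with 168 reads.

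**Figure D3:**
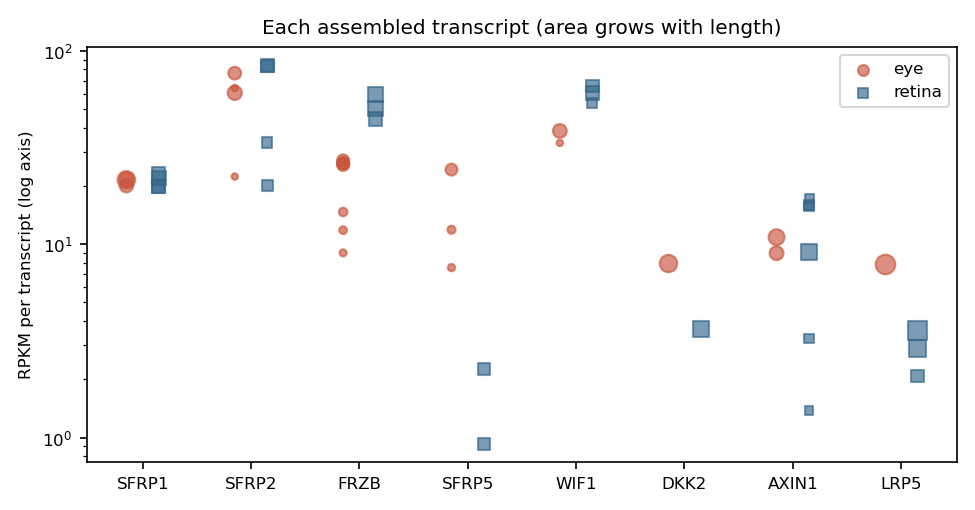
RPKM (log axis) of each assembled transcript of 8 members in eye (circles) and retina (squares), with symbol area growing with transcript length. For FRZB and WIF1 all retina transcripts lie above all eye transcripts, for SFRP5 all lie below, and for SFRP1, SFRP2 and AXIN1 the tissues overlap. Transcripts of a protein may share reads and are not replicates.

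The Axins, scaffolds of the complex that degrades beta-catenin, had differences whose sign changed with the measure. AXIN1 was at 10.9 RPKM in eye against 17.2 in retina, a difference of -0.61. The retina value came from a transcript of 895 bases with 97 aligned residues, and with best-matching or longest transcripts the difference was 0.23. AXIN2, itself a common target of the pathway, was at 5.35 RPKM in eye (5.17 to 5.53) against 4.80 in retina (4.68 to 4.91), a difference of 0.13. This became -0.058 with length-weighted means and -0.10 with equal totals for both tissues, a scaling that moved the median of all names to -0.25.

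**Figure D4:**
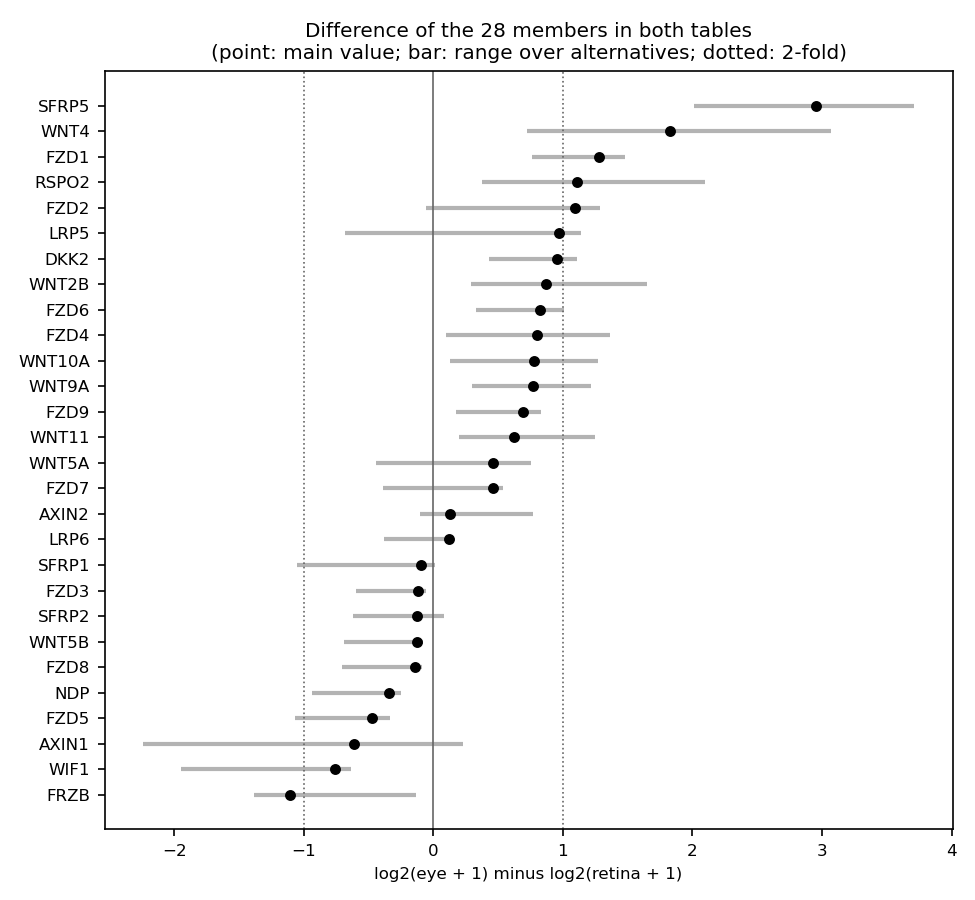
Difference, log2(eye + 1) minus log2(retina + 1), of the 28 members in both tables, as points, with bars over the range of the alternatives and dotted lines at 2-fold. SFRP5 at 2.96 has its whole bar beyond 2-fold, and 19 of the 28 members keep their sign over the whole bar.

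The other genes of the pathway were described from 5 lists with 70 genes, of which 63 could be compared. Of these 7 were called higher in eye and 2 in retina, 11.1% in eye, close to the 11.8% of all names, with a median difference of 0.14. Of all names 3.60% were called in retina. The list of the destruction complex and its transducers had 16 of 16 genes compared and none called. Of these, 5 were higher in eye and 11 in retina, against 49.7% of all names higher in eye, with a median of -0.11. Beta-catenin, CTNNB1, was at 89.1 RPKM in eye against 92.5 in retina, and the kinase CSNK1A1 at 104 and 88.0. The kinase GSK3A was at 49.1 and 69.8 RPKM, and DVL1, which relays the receptor signal, at 46.2 and 62.7. The signs of CTNNB1, CSNK1A1 and DVL1 depended on the alternative.

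Ligand release and receptor modulation was the list with the most calls, 5 of 14 compared in eye and none in retina. This was 35.7% in eye, against 11.8% of all names in eye and 3.60% in retina. The median was 0.52. WLS, the carrier that takes Wnt proteins to the cell surface, was at 26.1 RPKM in eye against 1.68 in retina, a difference of 3.33, larger than that of any member, and called under all 14 alternatives. GPC3 and GPC4, glypicans of the cell surface, were at 8.83 and 1.38 RPKM and at 4.43 and 0.961. SOSTDC1, an inhibitor related to sclerostin, was at 12.7 and 3.73 RPKM, and NOTUM, an enzyme that removes the lipid of Wnts, at 4.18 and 1.41. The GPC4 call was lost with pseudocount 5 (0.66), and that of NOTUM with pseudocount 5 (0.52), equal totals (0.94) and sums rescaled (0.70). PORCN, the enzyme that adds that lipid, was at 12.5 and 11.5 RPKM, a difference of 0.11 that was negative with sums and with equal totals, as was that of ADGRA2, at 17.0 and 15.3 RPKM. LGR6 and SOST were in the eye table only, at 0.402 and 0.445 RPKM, and KREMEN2 was under 1 RPKM in both tables.

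The nuclear, planar polarity and target lists had few calls. The shares called in eye were 0%, 7.69% and 12.5%, against 11.8% of all names. Among 12 nuclear effectors the co-repressor TLE2 was called in retina, at 25.8 and 53.9 RPKM, but its difference was 2.62 with longest transcripts and fell short of the call with best-matching transcripts (-0.74), length-weighted means (-0.66), median-ratio scaling (-0.998) and pseudocount 5 (-0.93). TLE1 was at 21.6 and 28.8 RPKM, TLE4 at 18.8 and 17.6, and PYGO2 at 11.4 and 9.44. Of 13 planar polarity and other receptor genes compared, DAAM2 was called in eye, at 4.68 and 1.39 RPKM, and the atypical cadherin CELSR3 in retina, at 2.14 and 6.70. The DAAM2 call was lost with pseudocount 5 and sums rescaled, and that of CELSR3 with pseudocount 5, length-weighted means and best-matching or longest transcripts (-0.38). CELSR1 had 6.90 RPKM in eye and no retina entry. The kinase NLK was at 59.3 and 115 RPKM, DAAM1 at 10.6 and 13.3, and the Wnt receptor RYK and its fellow PTK7 at 12.1 and 8.06 and at 9.92 and 7.39. Of 8 common targets compared, cyclin D1, CCND1, was called in eye, at 6.98 and 0.707 RPKM, a difference of 2.22. CD44 was at 11.5 and 6.37 RPKM, JAG1 at 7.35 and 5.55, TNFRSF19 at 5.40 and 4.69, and BAMBI, which was higher in retina, at 6.96 and 14.2. NKD2 had 0.540 RPKM in retina and no eye entry. These targets also respond to other signals, so their levels do not measure Wnt activity. The signs of PYGO2, TLE4, PTK7, JAG1 and TNFRSF19 also changed with the measure.

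**Figure D5:**
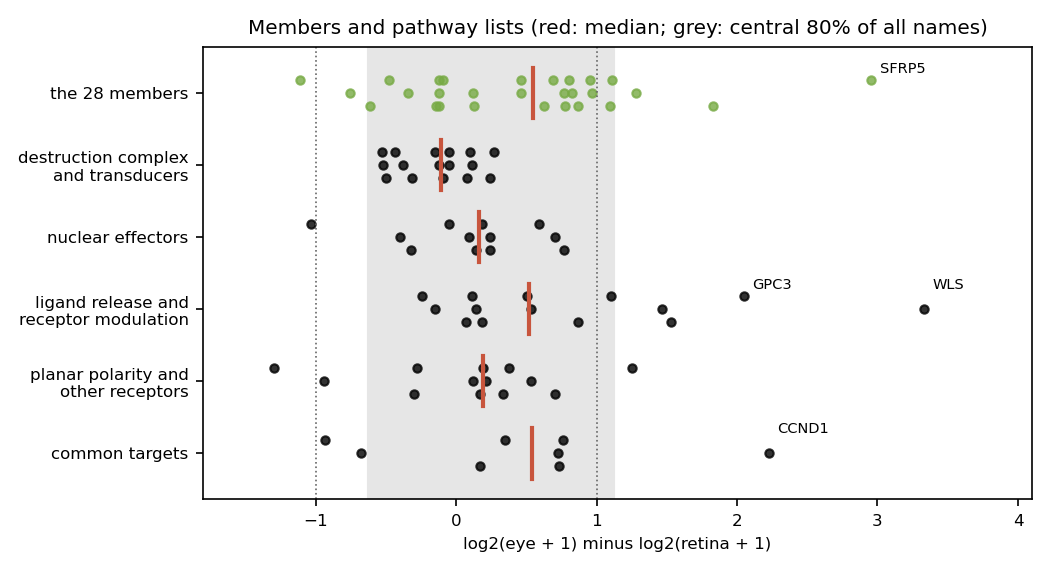
Difference, log2(eye + 1) minus log2(retina + 1), of the 28 members (top row) and of 63 genes in 5 pathway lists, with red lines at each median, dotted lines at 2-fold and grey over the central 80% of all names, from -0.63 to 1.13. WLS lies furthest towards eye at 3.33, and the destruction complex genes lie between the 2-fold lines.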

How the data were processed

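Eye and retina RNA of pooled animals was sequenced, and the authors deposited per tissue a table of assembled transcripts with an expression value, length and best hit, and, per the file headers, a list of protein hits from Swiss-Prot. The submitters' processing notes name Bowtie. What assembler, counting mode and genome build were used is not given in the sources used here, so no coordinates are printed. The values the authors deposited were read as RPKM, because value times length was a whole multiple of 1 constant per table, within 0.01 reads, for 100% of transcripts. Reads recovered this way sum to 19.2 (eye) and 10.5 (retina) times the scaling totals, so reads may count on several transcripts. The similarity of a hit is deposited as a percent. E-values and aligned lengths of hits served in alternatives.

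Transcripts of both tissues were matched by protein entry, ignoring the species of the hit. Shared names reaching 1 RPKM in at least 1 tissue were compared, which kept all 28 shared members. Of these, 8 were under 1 RPKM in retina and passed through their eye value. Intervals are 95% Poisson intervals on recovered reads, exact for levels and by the variance of the logarithm for ratios and differences. RefSeq names (assembly mIctTri1.hap1) matched all 47 symbols of the gene families searched and 69 of 70 pathway genes. Every member is named, and of each pathway list the 4 genes with the highest mean level, and those called both with and without transcripts under 200 bases. TSPAN12, KREMEN2 and the 4 list genes in 1 table only were added after their values were seen. The members, lists and measure were chosen with earlier results of these data known. Of the listed corneal and conjunctival markers 1 is not reported here and was left out of its sum. The functions were tested on simulated data. Alternatives were other transcripts per protein, sums, scalings, pseudocounts, filters and hit limits. Python 3.11.15, pandas 2.3.3, numpy 2.4.6 and scipy 1.17.1 were used.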

Additional observations from a re-analysis of the deposited data

How the results depend on the processing

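No paired analysis was possible because each tissue has 1 value for all its libraries, so replicates could not be left out either. Among the 28 shared members, 19 kept their sign under every alternative run, 13 for members under 10 RPKM and 14 for the others. The exceptions were AXIN1, AXIN2, LRP5, LRP6, FZD2, FZD7, WNT5A, SFRP1 and SFRP2, and of the called members FZD2 changed sign, to -0.053 with sums rescaled to an equal total. The count of members called in eye, 5 by the main measure, was 13 with pseudocount 0.1, 1 with pseudocount 5, 8 with best-matching transcripts, 2 with sums rescaled and 1 with the filter at 10 RPKM (7 members left). The count called in retina, 1 by the main measure, was 0 with best-matching and with longest transcripts, 2 with equal totals and with sums in RPKM, and 4 with sums rescaled. The members' median of 0.54 was 0.40 with equal totals, 0.79 and 0.24 with pseudocounts 0.1 and 5, 0.33 with sums in RPKM, -0.22 with sums rescaled and -0.34 with the filter at 10 RPKM. The median of all names was then -0.25 with equal totals and -0.0041 and -0.0023 with pseudocounts 0.1 and 5. It was -0.073 with sums in RPKM, -0.63 with sums rescaled and -0.027 with the filter at 10 RPKM. Over all names the shares called in eye were then 14.96% with pseudocount 0.1, 6.09% with pseudocount 5, 11.8% with best-matching transcripts, 9.36% with sums rescaled and 12.8% with the filter at 10 RPKM. In retina they were 3.17% with best-matching and 2.88% with longest transcripts, 6.85% with equal totals, 19.3% with sums in RPKM and 35.7% with sums rescaled.

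Of the 28 pathway genes named with a difference, 15 kept their sign under every alternative, and TLE2 changed from its call in retina to 2.62 with longest transcripts. The pathway genes called in eye, 7 by the main measure, numbered 12 with pseudocount 0.1 and with sums in RPKM, 4 with pseudocount 5 and 2 with the filter at 10 RPKM. Over all names those shares were 14.96%, 16.8%, 6.09% and 12.8%. The pathway genes compared were 65 with sums in RPKM, 66 with sums rescaled, 28 with the filter at 10 RPKM and 63 in the other settings named here. Those called in retina, 2 by the main measure, numbered 14 with sums in RPKM, 20 with sums rescaled, 4 with equal totals, 1 with best-matching or longest transcripts, with median-ratio scaling and with the filter at 10 RPKM, and 0 with length-weighted means and pseudocount 5. Over all names the retina shares were 19.3% with sums in RPKM, 35.7% with sums rescaled and 6.85% with equal totals. They were 3.17% with best-matching and 2.88% with longest transcripts, 3.39% with median-ratio scaling and 4.97% with the filter at 10 RPKM. With length-weighted means and pseudocount 5 they were 2.05% and 1.98%. The cause of these changes between settings was not tested. The lowest read numbers behind a member's value were 35 for WNT4 and 62 for RSPO2, both in retina.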

Other observations

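Proteins named for Wnt or Frizzled relatives but outside the member list were also measured. MFRP, the membrane frizzled-related protein of pigment epithelium and ciliary body, had 32.3 RPKM in eye against 2.56 in retina, on transcripts of 3944 and 3926 bases. The secreted WNT1-inducible signalling proteins WISP2 and WISP3 were at 3.57 and 2.27 RPKM in eye, and in retina WISP3 was at 0.252 with 30 reads while WISP2 was not in the table. DKK3, which the member list leaves out, had 202 RPKM in eye against 236 in retina, above every member in both tables. It is also 1 of the 5 Mueller glia markers used. The Dickkopf-like protein DKKL1 was at 12.5 and 17.5 RPKM, and AIDA, a partner of Axin, at 15.7 and 13.9.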
